A study of Mus musculus with 6 samples.

Results

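The 10 mitochondrially encoded mRNAs MT-ND1, MT-ND2, MT-ND3, MT-ND4, MT-ND5, MT-CYB, MT-CO1, MT-CO2, MT-CO3 and MT-ATP6 were examined in CFPAC-1 cells after KRT7 knockdown. They were taken from the count table by their gene identifiers, and all 10 of the 10 listed were among its 30543 rows and among the 15736 genes tested. CFPAC-1 is a human pancreatic adenocarcinoma (PAAD) cell line, so the cells stand for 1 line and not for a tissue. In the si-KRT7 group the cells were transfected with a siRNA against KRT7 (3 libraries), and in the si-Control group with a control siRNA (3 libraries). The time after transfection, the siRNA duplex used and any batch are not given in the sources used here, nor whether the 3 libraries of a group came from separate cultures, so the p-values measure the spread between these libraries only. The sample labels give the mouse as organism, whereas all 30543 identifiers are human Ensembl identifiers. Since no table used here pairs these identifiers with names, KRT7 itself and the epithelial markers of the line were not looked up.

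The mitochondrial genome encodes core subunits of the respiratory chain, which pumps protons across the inner mitochondrial membrane, and of the ATP synthase, which uses the proton gradient to make ATP. All 10 genes lie on the same strand and are transcribed together as a long precursor, from which the single mRNAs are cut out, for the most part at the tRNAs between them. Because of this shared transcription, differences between these mRNAs within a cell are known to depend on processing and on stability as well as on transcription. The mRNAs carry short poly(A) tails, so that they are captured with oligo(dT) beads like nuclear mRNAs. Nuclear copies of mitochondrial DNA and transcripts of the opposite strand can share reads with these genes, and MT-ATP6 and MT-ND4 overlap with a neighbouring gene. The strand setting and the treatment of shared reads are not given in the sources used here, so the counts are uncertain to that extent.

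The 6 libraries held between 28208896 and 36315802 counts. The library of si-KRT7 replicate 2 had the fewest counts, the lowest TMM normalization factor (0.976, against 0.986 to 1.03 in the others) and the largest share of counts on its 20 most counted genes (10.1%, against 8.63% to 9.23%). It also stood apart in expression, with a limma sample quality weight of 0.0973 against 1.20 to 2.11 in the others, so the results that rest on it are also given without it. Each of the 10 mRNAs was deeply covered, with 23061 to 354906 counts per library. The counting error was therefore between 0.168% and 0.659% of a value, and covers counting only. Reads were not corrected for transcript length, so levels are compared between libraries and not between genes.

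Together the 10 mRNAs took a similar part of the sequenced RNA in both groups. Their share of all counts was 3.15%, 3.19% and 3.29% in si-Control replicates 1, 2 and 3 and 3.35%, 3.35% and 3.26% in si-KRT7 replicates 1, 2 and 3. The si-KRT7 libraries were thus in the upper part of the range, and the groups overlapped, since si-KRT7 replicate 3 lay below si-Control replicate 3. Wilson 95% intervals on these shares were narrow, for example 3.35% to 3.36% in si-KRT7 replicate 2, and cover counting error only. The mean was 3.21% ± 0.0737 (SD, n = 3) in si-Control and 3.32% ± 0.0543 (SD, n = 3) in si-KRT7 cells, a difference of 0.106 percentage points (two-sided exact permutation p = 0.2, where 3 libraries against 3 cannot go below 0.1). Scaled by the TMM effective library size instead, the difference was 0.0596 percentage points (exact permutation p = 0.6), and without si-KRT7 replicate 2 it was 0.0885 percentage points of all counts. Since this test cannot go below 0.1 here, it cannot decide whether the summed mitochondrial mRNA changed between the groups. In bulk RNA, a change in the mix of cells and a change in RNA per cell cannot be told apart.

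The single mRNAs did not move together. In si-KRT7 cells MT-ND2 rose 1.33-fold, and it was the 1 of 10 mRNAs with an adjusted p under 0.05 (edgeR quasi-likelihood test, Benjamini-Hochberg adjustment over 15736 genes). The background share was 2.07% for any direction and 0.712% for higher genes. None of the 10 passed the added limit of an absolute log2 fold change over 1, which 0.292% of all genes passed. The unadjusted edgeR p was under 0.05 for 3 mRNAs, MT-ND2 and MT-ND3 higher and MT-CYB lower. The share of all genes under this limit is not given here, so this count is a description only. In CPM, the counts scaled to the library total with TMM factors, the groups did not overlap for 4 of 10 mRNAs, with MT-ND2 and MT-ND3 higher and MT-ND4 and MT-CYB lower in all si-KRT7 libraries. Over all genes tested the groups did not overlap in 24.4%. The median log2 fold change of the 10 was 0.032, against 0.011 over all genes, and the median of its absolute value was 0.092, against 0.18. Over the 247 other genes with a mean of at least 500 CPM these medians were -0.034 and 0.105, so the absolute change was near that of other abundant genes.

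**Figure D1:**
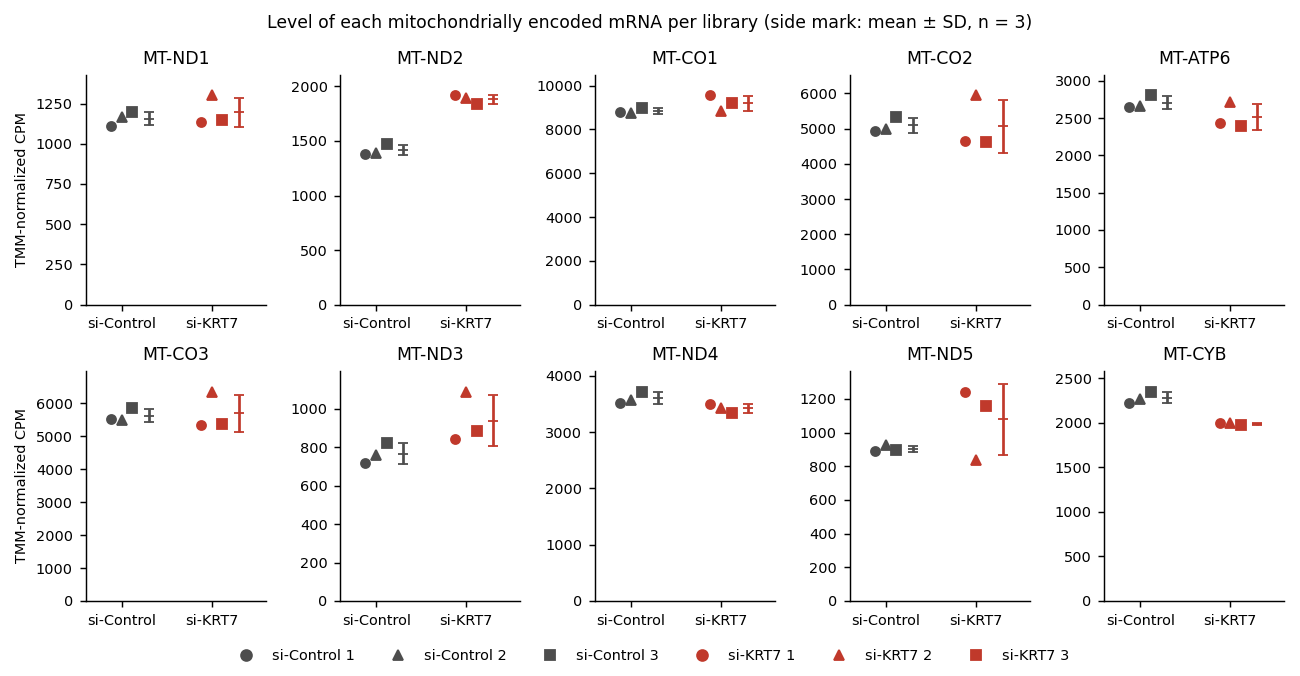
TMM-normalized CPM (vertical axes from 0) of each mRNA in the 3 si-Control (grey) and 3 si-KRT7 (red) libraries, with circles, triangles and squares for replicates 1, 2 and 3 and the mean ± SD at the side. MT-ND2 lay between 1836 and 1918 CPM in si-KRT7 against 1384 to 1470 CPM in si-Control cells, MT-CYB was lower in every si-KRT7 library, and the triangle of si-KRT7 replicate 2 lay apart in MT-CO2, MT-ND3 and MT-ND5.

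Complex I (NADH dehydrogenase), which passes electrons from NADH to ubiquinone, holds the subunits encoded by 5 of the mRNAs. MT-ND2 (ENSG00000198763) encodes a subunit of its proton-pumping membrane arm. Its level was 1384, 1391 and 1470 CPM in si-Control replicates 1, 2 and 3 and 1918, 1897 and 1836 CPM in si-KRT7 replicates 1, 2 and 3. All 3 si-KRT7 libraries, replicate 2 included, lay well above all si-Control libraries and close to each other. This is a log2 fold change of 0.41 (standard error 0.063, 95% interval 0.27 to 0.56) with an adjusted p of 0.0186 in edgeR and of 2.89e-05 in DESeq2. The size held with any library left out (log2 fold change 0.40 to 0.44), whereas the call did not. Without si-Control replicate 1, 2 or 3 the adjusted p from edgeR was 0.172, 0.170 and 0.136. Without si-KRT7 replicate 1 or 3 it was 0.0694 and 0.0850, and without si-KRT7 replicate 2 it was 2.64e-10. In that last fit 42.9% of all genes had an adjusted p under 0.05, and the library was set apart with results known. Values without si-KRT7 replicate 2 are therefore descriptions, for this mRNA and the others.

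MT-ND3 (ENSG00000198840) encodes a small subunit at the junction of the membrane arm and the peripheral arm of complex I. It stood at 715, 760 and 824 CPM in si-Control and at 845, 1088 and 882 CPM in si-KRT7 replicates 1, 2 and 3. The groups did not overlap, but si-KRT7 replicate 1 lay only just above si-Control replicate 3, and replicate 2 was the highest of all. Its log2 fold change was 0.29 (standard error 0.11, 95% interval 0.046 to 0.54) and did not pass in edgeR (adjusted p = 0.201). Without si-KRT7 replicate 2 it was smaller, 0.17 (adjusted p = 0.00167 in edgeR, in the fit where 42.9% of all genes passed).

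MT-ND5 (ENSG00000198786), which encodes the outermost large subunit of the membrane arm, divided the si-KRT7 group. Its level was 888, 924 and 895 CPM in si-Control replicates 1, 2 and 3. In si-KRT7 cells it was 1242 CPM in replicate 1 and 1155 CPM in replicate 3 but 839 CPM in replicate 2. Replicates 1 and 3 thus lay above, and replicate 2 below, every si-Control library. Over all libraries the log2 fold change was 0.26 (standard error 0.13, adjusted p = 0.345 in edgeR), with a 95% interval of -0.047 to 0.56. Without si-KRT7 replicate 2 it was 0.41 (standard error 0.032, adjusted p = 5.61e-10 in edgeR), about the size seen for MT-ND2.

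MT-ND4 (ENSG00000198886), another proton-pumping subunit, was slightly lower in si-KRT7 cells. It measured 3517, 3576 and 3714 CPM in si-Control and 3492, 3425 and 3344 CPM in si-KRT7 replicates 1, 2 and 3. The groups did not overlap, by the small gap between si-KRT7 replicate 1 and si-Control replicate 1. A log2 fold change of -0.075 (95% interval -0.21 to 0.061) did not pass in edgeR (adjusted p = 0.545). Without si-KRT7 replicate 2 it was -0.079 (adjusted p = 0.0230 in edgeR). MT-ND1 (ENSG00000198888), which encodes a subunit next to the ubiquinone site, measured 1111, 1163 and 1195 CPM in si-Control and 1138, 1300 and 1147 CPM in si-KRT7 replicates 1, 2 and 3. Only replicate 2 of si-KRT7 lay outside the si-Control range, and the log2 fold change was 0.047 (95% interval -0.13 to 0.22, adjusted p = 0.788 in edgeR), with the opposite sign (-0.021) without that library. Neighbouring subunit mRNAs of the same complex, MT-ND1 and MT-ND2, therefore had different values in the same libraries, though the difference between them was not tested.

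Summed, the 5 complex I mRNAs took 0.757%, 0.779% and 0.798% of the counts in si-Control replicates 1, 2 and 3, and 0.886%, 0.833% and 0.853% in those of si-KRT7. All si-KRT7 libraries lay above all si-Control libraries (exact permutation p = 0.1, the smallest possible here). Without si-KRT7 replicate 2 the difference of the means was 0.0914 percentage points, against 0.0794 with it. This sum was not planned beforehand. MT-ND2 belongs to it, so the sum is not independent of the result for that mRNA.

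Complex III (cytochrome bc1 complex) passes electrons from ubiquinol to cytochrome c, and MT-CYB (ENSG00000198727) encodes cytochrome b, its only mitochondrially encoded subunit. MT-CYB measured 2227, 2270 and 2349 CPM in si-Control and 1995, 1997 and 1975 CPM in si-KRT7 replicates 1, 2 and 3. The si-KRT7 libraries were nearly equal to each other and all lay below the si-Control libraries, with a gap larger than the spread in either group. For MT-CYB the log2 fold change was -0.20 (standard error 0.060, 95% interval -0.33 to -0.062). It had an unadjusted p of 0.00985 and an adjusted p of 0.132 in edgeR, so it did not pass over all genes. Without si-KRT7 replicate 2 the log2 fold change was also -0.20, and the adjusted p was 2.11e-06 in edgeR.

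Complex IV (cytochrome c oxidase) reduces oxygen to water, and MT-CO1, MT-CO2 and MT-CO3 encode its catalytic core. MT-CO1 (ENSG00000198804), which encodes the subunit with the oxygen-binding site, had the most counts of the 10 mRNAs in every library. It measured 8781, 8757 and 8992 CPM in si-Control and 9555, 8855 and 9197 CPM in si-KRT7 replicates 1, 2 and 3. Si-KRT7 replicates 1 and 3 lay above the si-Control range and replicate 2 within it. Over all libraries the log2 fold change was 0.057 (95% interval -0.075 to 0.19, adjusted p = 0.646 in edgeR). Without replicate 2 it was 0.081 (adjusted p = 0.00467 in edgeR).

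MT-CO2 (ENSG00000198712) encodes the subunit that takes up electrons from cytochrome c. It measured 4937, 4989 and 5345 CPM in si-Control and 4653, 5943 and 4626 CPM in si-KRT7 replicates 1, 2 and 3. Here replicates 1 and 3 of si-KRT7 lay below every si-Control library and replicate 2 above every one. Over all libraries the log2 fold change was therefore near 0, at -0.0045 (95% interval -0.24 to 0.23, adjusted p = 0.988 in edgeR), and its sign changed when counts were scaled by library size only (0.013). Without replicate 2 it was -0.14 (adjusted p = 3.61e-04 in edgeR).

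MT-CO3 (ENSG00000198938), which encodes the third core subunit, followed the same order. It measured 5525, 5493 and 5852 CPM in si-Control and 5350, 6346 and 5378 CPM in si-KRT7 replicates 1, 2 and 3, so that replicates 1 and 3 again lay below and replicate 2 above the si-Control libraries. The log2 fold change was 0.017 (95% interval -0.17 to 0.20, adjusted p = 0.936 in edgeR) and was -0.071 without replicate 2 (adjusted p = 0.0307 in edgeR). The summed share of the 3 complex IV mRNAs was 1.94% ± 0.0431 (SD, n = 3) of all counts in si-Control and 2.01% ± 0.0518 (SD, n = 3) in si-KRT7 cells (exact permutation p = 0.2). The difference of 0.0688 percentage points fell to 0.0423 without si-KRT7 replicate 2. Scaled by the TMM effective library size it was 0.0411 with and -0.0177 without that library, so its direction was not stable.

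MT-ATP6 (ENSG00000198899) encodes subunit a of the ATP synthase, which forms the path of protons through the membrane. It measured 2652, 2661 and 2804 CPM in si-Control and 2432, 2710 and 2389 CPM in si-KRT7 replicates 1, 2 and 3. Replicates 1 and 3 lay below the si-Control libraries and replicate 2 among them. Its log2 fold change was -0.11 (95% interval -0.27 to 0.056, adjusted p = 0.464 in edgeR), and -0.17 without replicate 2 (adjusted p = 2.70e-05 in edgeR).

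**Figure D2:**
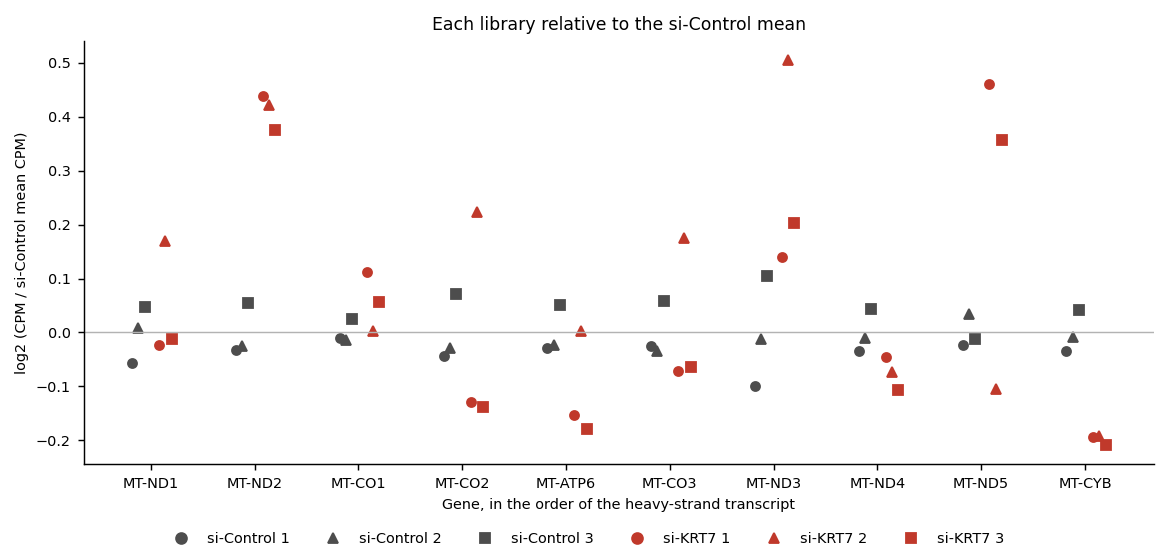
Log2 ratio of the CPM in each library to the si-Control mean (vertical axis) for the 10 mRNAs in their order along the shared precursor (horizontal axis), with grey for si-Control and red for si-KRT7 libraries and circles, triangles and squares for replicates 1, 2 and 3. The 3 si-KRT7 libraries lay together for MT-ND2 (0.38 to 0.44) and MT-CYB (-0.21 to -0.19). Replicate 2 lay clearly above replicates 1 and 3 for MT-ND1 and from MT-CO2 to MT-ND3, and below them for MT-CO1 and MT-ND5.

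To take library size and normalization out of the comparison, each mRNA was expressed as a share of the summed counts of the 10. MT-ND2 made up 4.36%, 4.35% and 4.40% of these counts in si-Control replicates 1, 2 and 3 and 5.88%, 5.51% and 5.75% in those of si-KRT7. MT-CYB made up 7.02%, 7.10% and 7.02% in si-Control and 6.12%, 5.81% and 6.19% in si-KRT7 replicates 1, 2 and 3. In both cases the si-Control libraries agreed closely and the si-KRT7 libraries lay outside their range on the same side. MT-ND3 also had a higher share in all si-KRT7 libraries (2.84% ± 0.294 against 2.36% ± 0.105, SD, n = 3). MT-ATP6 had a lower one (7.61% ± 0.236 against 8.35% ± 0.0328, SD, n = 3), as did MT-ND4 (10.4% ± 0.384 against 11.1% ± 0.0513, SD, n = 3). The groups did not overlap in these 5 of the 10 shares. For each of the 5 the two-sided exact permutation p was 0.1, the smallest that this design allows, and 0.2 after Benjamini-Hochberg adjustment over the 10, so none can pass. The shares add up to 100% in a library, so a rise in 1 mRNA lowers the others and the 5 are not independent of each other. With si-KRT7 replicate 2 left out, the groups did not overlap in 9 of the 10 shares, but 3 libraries against 2 overlap less readily than 3 against 3. Shares of this kind have no counterpart over all genes. In CPM without that library, the groups did not overlap for 9 of the 10 mRNAs and for 61.5% of all genes tested.

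**Figure D3:**
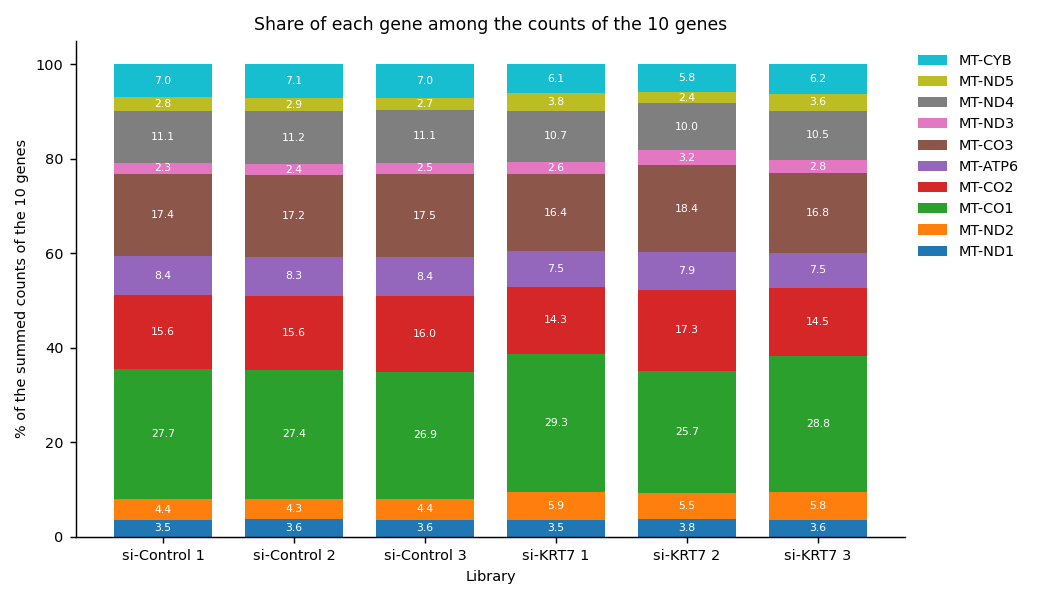
Stacked shares (vertical axis, % of the summed counts of the 10 mRNAs) in each of the 6 libraries (horizontal axis), with each colour an mRNA. The share of MT-ND2 was 4.35% to 4.40% in si-Control and 5.51% to 5.88% in si-KRT7 libraries, and MT-CO2 took 17.3% in si-KRT7 replicate 2 against 14.3% and 14.5% in replicates 1 and 3.

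Replicate 2 of si-KRT7 was then set apart from replicates 1 and 3. This split was known from earlier results to separate the libraries and has 1 library on 1 side, so the values are a description with no test. Relative to the mean of replicates 1 and 3, replicate 2 held 1.28 times the CPM of MT-CO2, 1.26 times that of MT-ND3, 1.18 times that of MT-CO3, 1.14 times that of MT-ND1 and 1.12 times that of MT-ATP6. MT-CO2, MT-ATP6, MT-CO3 and MT-ND3 follow each other in this order along the precursor, whereas MT-ND1 is not next to them. MT-ND5 was the exception in the other direction, with 0.699 times the CPM of replicates 1 and 3, and MT-CO1 had 0.945 times. For MT-ND2, MT-ND4 and MT-CYB, replicate 2 was only 1.05%, 0.196% and 0.629% above the mean of replicates 1 and 3. Against the si-Control libraries, replicate 2 lay above the range for 5 mRNAs, below it for 3 and within it for 2. The like count over all genes is not given here. Of all genes, 76.6% varied more among the si-KRT7 than among the si-Control libraries. That is another measure, so it cannot decide whether the count is particular to these mRNAs. The smaller depth of replicate 2 and its larger share of counts on few genes stood beside these differences, and their part was not tested.

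Without replicate 2, 9 of the 10 mRNAs had an adjusted p under 0.05 in edgeR, all but MT-ND1, against 42.9% of the 16202 genes then tested. The 10 mRNAs were at ranks 2 to 127 by counts, where small changes pass more readily. The share called among genes of like abundance is not given here. MT-ND2, MT-ND5, MT-ND3 and MT-CO1 were higher (4 of 10, against 20.9% of all genes) and MT-CYB, MT-ATP6, MT-CO2, MT-ND4 and MT-CO3 lower (5 of 10, against 22.0%). None passed the limit of an absolute log2 fold change over 1. The log2 fold changes lay between -0.20 and 0.41, with a median of -0.046, against -0.0094 over all genes and -0.17 over the 247 other genes with a mean of at least 500 CPM. The biological coefficient of variation was 0.0485 without replicate 2 and 0.130 with all libraries, which sets the smaller standard errors. Among these 9, MT-ND2 and MT-ND5 had the largest changes, and MT-CO1, MT-CO3 and MT-ND4 had changes of less than 0.1 on the log2 scale.

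**Figure D4:**
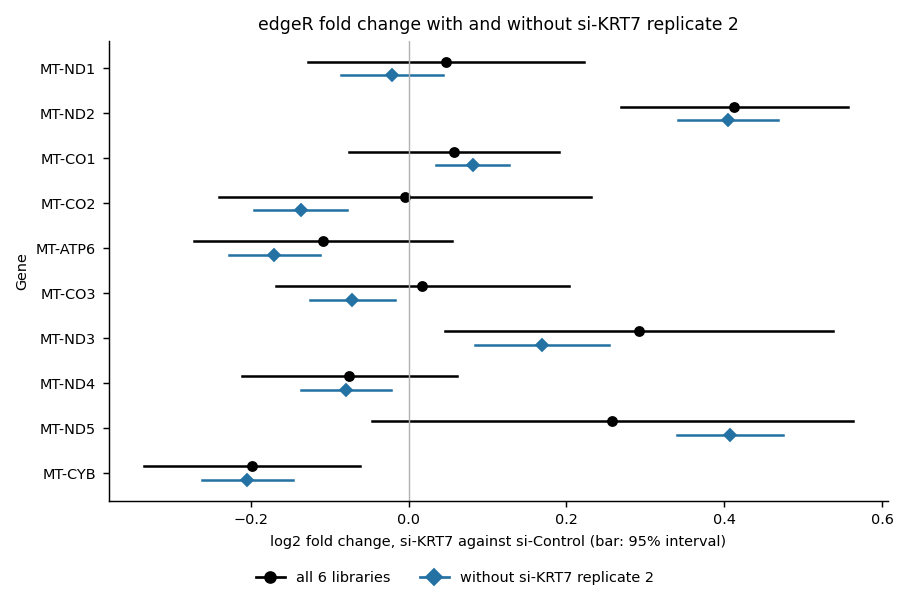
Log2 fold change of si-KRT7 against si-Control (horizontal axis) with 95% intervals from edgeR for each mRNA (vertical axis), over all 6 libraries (black circles) and without si-KRT7 replicate 2 (blue diamonds). MT-ND2 (0.41 and 0.40) and MT-CYB (-0.20 in both) kept their values, while MT-ND5 went from 0.26 to 0.41 and MT-CO2 from -0.0045 to -0.14.

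The mRNAs varied little among the si-Control libraries. The standard deviation of log2 CPM over these 3 libraries had a median of 0.047 over the 10 mRNAs, against 0.088 over all genes tested and 0.031 over these 247 other abundant genes. It was lowest for MT-CO1 (0.021) and highest for MT-ND3 (0.10). Among the si-KRT7 libraries the median was 0.10, against 0.23 over all genes and 0.20 over the other abundant genes. Between si-KRT7 replicates 1 and 3 alone it was 0.029, against 0.067 and 0.017, so much of the larger spread rested on replicate 2. With all 3 si-KRT7 libraries it was larger in si-KRT7 than in si-Control cells for 7 of the 10 mRNAs, for 76.6% of all genes and for 96.4% of the other abundant genes. With replicates 1 and 3 alone this held for 3 of the 10 mRNAs, 39.1% of all genes and 30.4% of the other abundant genes. A standard deviation over 2 libraries tends to come out lower than over 3, which lowers these shares and the medians of replicates 1 and 3. Over all 3 libraries, MT-CYB (0.0089), MT-ND4 (0.031) and MT-ND2 (0.032) were the 3 that varied less in si-KRT7 cells, and MT-ND5 (0.30) varied the most.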

How the data were processed

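RNA-seq counts of 6 CFPAC-1 libraries were analysed, 3 for si-KRT7 and 3 for si-Control. Poly(A) RNA was captured, copied from random primers and sequenced on DNBSEQ. The authors deposited raw whole-number counts, with 1 column per library and no scaling. The submitters' processing notes list STAR 2.7.11b and the mouse build GRCm39, whereas all 30543 identifiers are human. The counting tool and annotation are not given in the sources used here. No coordinates or sequences are printed, because the reference used here was that of the mouse.

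After filterByExpr and TMM normalization, the edgeR 4.0.16 functions glmQLFit and glmQLFTest were run in R 4.3.3, with p-values adjusted by Benjamini-Hochberg over all genes. Standard errors are the fold change divided by the square root of F, and 95% intervals use the moderated degrees of freedom. SDs of log2 CPM used a prior count of 2. Shares were compared by exact permutation (scipy 1.17.1). Alternatives were DESeq2 1.42.0, limma-voom 3.58.1 with and without sample weights, other scalings and filters, each library left out and a replicate block. The fits were tested on simulated data with the same variability in every library, and so without a library that stood apart.

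The 10 mRNAs, the lists and the tests were chosen with earlier results of these data known. All 10 mRNAs were named whatever their values, and outside them the 2 genes most like them. The identifiers matched 0 entries of the name table used here, so other mitochondrially encoded genes, nuclear respiratory-chain genes, factors of mitochondrial transcription and replication, biogenesis regulators, nuclear pseudogenes, KRT7 and cell type markers were not analysed here.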

Additional observations from a re-analysis of the deposited data

How the results depend on the processing

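The log2 fold changes of MT-ND2, MT-ND3, MT-ND5, MT-CO1, MT-CYB, MT-ATP6 and MT-ND4 kept their direction in all 15 alternatives. MT-ND2 ranged from 0.40 to 0.44 and passed in 9 of the 15, and MT-CYB from -0.22 to -0.18 and passed in 2. Signs changed for MT-CO2 with library size only (0.013), without si-Control replicate 3 (0.030), without si-KRT7 replicate 1 (0.052) and without si-KRT7 replicate 3 (0.056). They changed for MT-ND1 without si-KRT7 replicate 2 (-0.021) and with sample quality weights (-0.0068), and for MT-CO3 without si-KRT7 replicate 2 (-0.071), with the weights (-0.053) and without si-Control replicate 2 (-0.0017). Over the libraries left out, MT-ND1 ranged from -0.021 to 0.079, MT-CO2 from -0.14 to 0.056 and MT-CO3 from -0.071 to 0.058. The cause was not tested.

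The number of mRNAs with an adjusted p under 0.05 was 1 of 10 in edgeR. With the other scalings, limma-voom, DESeq2 and at least 10 counts in every library it stayed at 1. It was 2 without a filter and 7 with limma-voom and quality weights, which gave si-KRT7 replicate 2 a weight of 0.0973 and the others 1.20 to 2.11. Leaving out a library gave 0 to 9. Of the 15736 genes tested in edgeR, 325 had an adjusted p under 0.05 and 46 passed both limits. DESeq2 gave 1153 and 101, and the quality weights 6858 and 443 of the same 15736 genes, so calls rose over all genes with the weights too. No filter gave 1347 and 154 over more genes, and leaving out a library gave 6 to 6944 and 6 to 356. Of the libraries left out, si-KRT7 replicate 2 gave the highest of these counts.

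With the replicate block, 0 of the 10 mRNAs, 76 genes by adjusted p and 25 by both limits passed, and MT-ND2 stood at 0.41 on the log2 scale (edgeR adjusted p = 0.108). Deviations of same-numbered libraries had correlations of 0.0520, -0.0798 and -0.0728, and not every library correlated best with its own number. Deviations from a mean of 3 libraries are tied to each other, and si-KRT7 replicate 2 stood apart. These correlations therefore cannot decide whether same-numbered libraries were paired.

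The difference in the summed share, 0.106 percentage points, kept its sign with every other denominator and with each library left out, each changed on its own. The number of shares within the 10 without overlap, 5, was 9 without si-KRT7 replicate 2 and ranged from 5 to 9 over the libraries left out. The sums by complex were not planned beforehand. After seeing the data, they were also computed without si-KRT7 replicate 2 and with the TMM effective library size. With both, the complex IV difference changed sign (-0.0177 percentage points), and the other signs held. Alternatives for other gene lists were not run, since those genes were not named here.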

Other observations

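Among 11363 other genes averaging 100 or more counts in a library, those whose log2 CPM over the 6 libraries was most like the mean log2 CPM of the 10 mRNAs were ENSG00000116478 (Pearson r = 0.990) and ENSG00000090447 (r = 0.988). These are descriptions over 6 libraries, which share depth and normalization, and are the highest of many. Their log2 fold changes were 0.10 and 0.25, with adjusted p-values of 0.505 and 0.319 in edgeR.

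MT-CO1, MT-CO2, MT-CO3 and MT-ND4 were among the 20 genes with the most counts summed over the 6 libraries, at ranks 2, 5, 4 and 8. This is a count of reads, which also grows with the length of a transcript.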
